A study of Mus musculus with 12 samples.

Results

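The 9 genes followed here belong to the Hippo and YAP pathway: Yap1, Wwtr1, Tead1, Lats2, Amotl2, Ccn2, Ccn1, Ankrd1 and Axl. They are the 9 rows, of 41709 genes in the deposited table, whose symbol is on a list of YAP, TAZ, their partners and targets. That rule uses no measured value, but the list was chosen with earlier results of these data known. RNA came from aortic valve leaflets, in mice of the strain C57BL/6J;129SvEv at 2 months of age, cut out whole from stained frozen sections by laser microdissection. There were 4 genotypes with 3 libraries each, DKO, SMKO, ECKO and CTRL, and the labels give only these codes. In the study as it is known, Efemp2, which encodes the elastic fibre protein fibulin-4, was deleted in both endothelial and smooth muscle cells (DKO), in smooth muscle cells (SMKO) or in endothelial cells (ECKO). The driver of the deletion is not given in the labels, which describe biological triplicates but do not tie libraries to animals.

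YAP, encoded by Yap1, and its relative TAZ, encoded by Wwtr1, are transcriptional coactivators that carry no DNA-binding domain and reach DNA through TEAD proteins such as TEAD1. The Hippo kinases LATS1 and LATS2 phosphorylate YAP and TAZ and keep them out of the nucleus, and stretch, stiff matrix and integrin attachment favour nuclear YAP. Ccn2, Ccn1, Ankrd1, Axl, Amotl2 and Lats2 are widely used target genes. YAP activity is set mostly on the protein, so mRNA levels of Yap1 and Wwtr1 do not measure it.

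The letters GGAATG and their reverse complement CATTCC, the core that TEAD proteins bind, were searched on both strands of RefSeq promoters of mouse build GRCm38.p6, from 250 bases before to 50 after each start. Promoters were found for 7 of the 9 genes, with no entry for Ccn2 and Tead1, and all 7 held a match. Of these genes, Lats2 has 2 promoters, and 1 of them held no match. Over all genes in the RefSeq promoter set, 4481 of 27025 (16.6%) had a promoter with one. The AP-1 letters TGANTCA were in none of the promoters of these 7 genes, and 8.97% of all genes in that set had a promoter with them. The promoters of 3 genes are shown because Ccn1, Ankrd1 and Amotl2 are the targets set beside Ccn2 in the results, with the TEAD letters in capitals: Ccn1 at chr3:145649936-145650235 (minus strand), Ankrd1 at chr19:36119795-36120094 (minus strand) and Amotl2 at chr9:102717554-102717853 (plus strand).
Ccn1: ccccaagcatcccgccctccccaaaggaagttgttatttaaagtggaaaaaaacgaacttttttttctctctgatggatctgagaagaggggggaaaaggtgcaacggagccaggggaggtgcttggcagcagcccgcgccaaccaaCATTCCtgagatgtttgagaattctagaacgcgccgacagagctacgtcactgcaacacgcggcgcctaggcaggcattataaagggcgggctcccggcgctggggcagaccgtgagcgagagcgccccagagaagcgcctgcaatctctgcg
Ankrd1: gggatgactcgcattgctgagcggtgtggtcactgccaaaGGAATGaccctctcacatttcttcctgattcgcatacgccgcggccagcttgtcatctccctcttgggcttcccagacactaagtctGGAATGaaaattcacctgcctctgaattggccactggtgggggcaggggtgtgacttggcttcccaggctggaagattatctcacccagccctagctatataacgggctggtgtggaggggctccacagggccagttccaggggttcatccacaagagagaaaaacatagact
Amotl2: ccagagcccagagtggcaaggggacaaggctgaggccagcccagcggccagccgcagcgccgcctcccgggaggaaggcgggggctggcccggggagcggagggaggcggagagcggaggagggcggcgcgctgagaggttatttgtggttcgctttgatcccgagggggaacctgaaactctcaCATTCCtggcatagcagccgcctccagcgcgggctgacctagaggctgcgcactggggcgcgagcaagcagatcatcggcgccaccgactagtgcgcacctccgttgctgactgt
The match began 103 bases upstream of the Ccn1 start, 210 and 123 bases upstream of the Ankrd1 start, and 65 bases upstream of the Amotl2 start. In the other genes it began 141 bases upstream of Yap1, 136 and 170 bases upstream of the 2 Wwtr1 starts, 233 bases upstream of Axl and 5 bases after 1 start of Lats2. A match describes the letters and does not show binding.

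Depth was shallow, at 74827 to 615665 counts per library (median 321312). Efemp2, read to check the labels, had 0 counts in all 3 DKO libraries, which allows up to 3.11 raw CPM over that group. It had 4, 0 and 0 counts in SMKO, 3, 15 and 8 counts in ECKO, and 58, 23 and 9 counts in CTRL. Its adjusted p in edgeR's quasi-likelihood F test was 0.000497 for DKO against CTRL and 0.0612 for SMKO against CTRL. Efemp2 shares an exon region with Mus81 on the opposite strand, and the kit does not keep strand. The share of counts from mitochondrially encoded genes was highest in 3 libraries: CTRL 3 (26.7%), SMKO 2 (24.1%) and SMKO 3 (28.5%). The others ran from 10.5% to 21.0%, and DKO 3 (21.0%), ECKO 1 (20.9%) and DKO 1 (20.7%) came next. SMKO 3 was also the shallowest library.

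Levels of different genes were compared as deposited TPM, which divides by transcript length. Ccn2, a secreted matrix-associated protein also called CTGF, had the highest TPM of the 9 genes in 12 of 12 libraries, with a median of 639 TPM. Ccn1, its relative also called CYR61, followed at 154 TPM and Axl, a receptor tyrosine kinase, at 128 TPM. Wwtr1 had a median of 84.5 TPM and Yap1 of 50.1 TPM, and Wwtr1 lay above Yap1 in 12 of 12 libraries. Lats2 had a median of 26.1 TPM, Tead1 of 11.9 TPM, Amotl2 of 9.37 TPM and Ankrd1 of 5.57 TPM. The ranges over libraries of Ccn1 (59.0 to 422 TPM) and Axl (75.3 to 184 TPM) overlapped, as did those of Wwtr1 (51.1 to 141 TPM) and Yap1 (19.4 to 89.4 TPM). Among all genes, Ccn2 ranked 45 by mean TPM in DKO, 169 in SMKO, 145 in ECKO and 135 in CTRL.

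**Figure D1:**
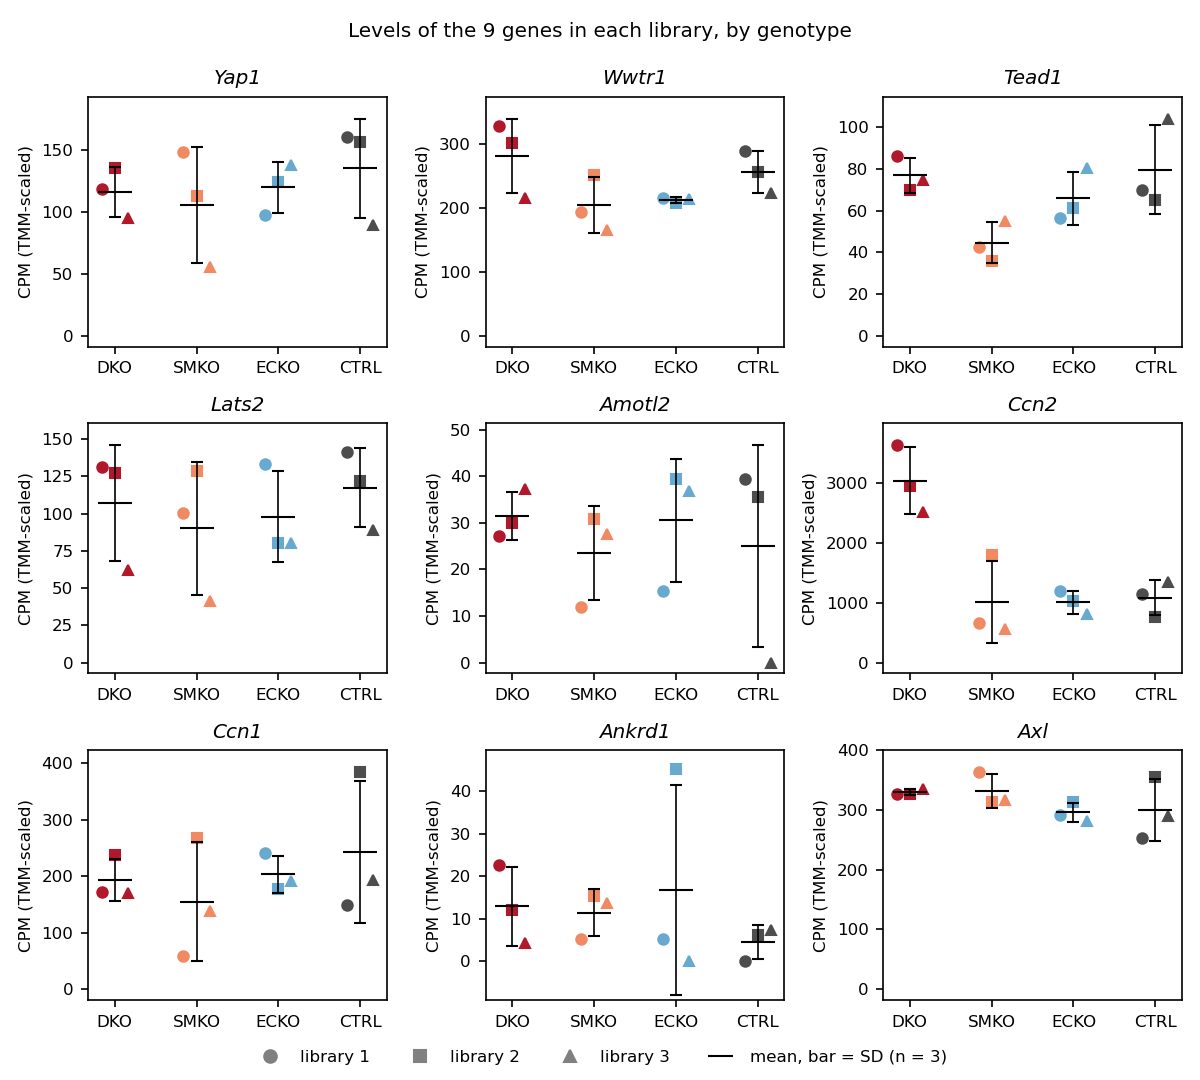
Levels of the 9 genes in CPM, scaled by TMM (y axis), in DKO, SMKO, ECKO and CTRL, 1 symbol per library, with the mean and SD of 3 libraries. For Ccn2 the 3 DKO libraries lie between 2521 and 3632 CPM and the other 9 between 566 and 1802 CPM; for each of the other 8 genes the DKO libraries overlap those of at least 2 other genotypes.

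Ccn2 was higher in DKO leaflets than in each of the other genotypes. It had 3632, 2953 and 2521 CPM in DKO, 664, 1802 and 566 CPM in SMKO, 1188, 1024 and 810 CPM in ECKO, and 1140, 763 and 1337 CPM in CTRL. Levels in CPM are counts scaled to library size and, by TMM, to composition. Every DKO library lay above all 9 others, and the highest of those was SMKO 2. A leaflet is a mixture of cell types, so a change in the number of cells of a type and a change in RNA per cell cannot be told apart. The raw counts behind these levels were 800, 1483 and 608 in DKO, 390, 351 and 41 in SMKO, 232, 702 and 353 in ECKO, and 782, 494 and 180 in CTRL. The means were 3036 ± 560 CPM in DKO, 1011 ± 687 CPM in SMKO, 1008 ± 189 CPM in ECKO and 1080 ± 291 CPM in CTRL (SD, n = 3 each). The 3 groups other than DKO thus had means that lay closer together than the SD of any of them.

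Tested in 1 edgeR model of the 12 libraries, with adjustment over 6296 genes and a call at an adjusted p under 0.05, Ccn2 rose in DKO against ECKO. The log2 fold change was 1.59 (SE 0.36, 95% interval 0.85 to 2.34, adjusted p = 0.0399). In that comparison 1 of 8 tested members was called, beside 0.572% of all tested genes. The 3 libraries of each group did not overlap for Ccn2, Wwtr1 and Axl, beside 18.9% of all genes. Among the 4 groups together, Ccn2 also passed (adjusted p = 0.0293), again as 1 of 8 members beside 0.302% of genes. That call was lost in 8 of the 12 fits that left out 1 library, namely CTRL 1, CTRL 2, any ECKO or any DKO library, with adjusted p up to 0.333 in edgeR's test.

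Against CTRL the change was of similar size, but the call was missed. The log2 fold change of Ccn2 in DKO against CTRL was 1.50 (SE 0.36, 95% interval 0.75 to 2.24), a fold of 2.82, with an adjusted p of 0.0535 in edgeR's test. None of the 8 members was called there (edgeR), beside 0.492% of genes; 1 of the 8, Ccn2, had an unadjusted p under 0.05, beside 11.6% of genes. Ccn2 was the 1 member whose DKO and CTRL libraries did not overlap, beside 17.8% of genes. The call depended on libraries outside the pair: without SMKO 1, 2 or 3 the adjusted p was 0.0356, 0.00039 and 0.0236 in edgeR's test.

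Against SMKO the log2 fold change of Ccn2 was 1.58 (SE 0.37, 95% interval 0.83 to 2.32, adjusted p = 0.260 in edgeR's test). Neither a member nor any other gene was called in that comparison (0% of 6296 genes; unadjusted p under 0.05 in 396), and Ccn2 ranked 4 by p. DESeq2 called 3 genes there and limma-voom with library weights 54, with an adjusted p for Ccn2 of 0.0366 in DESeq2 and 0.00506 in limma-voom. Without SMKO 2, edgeR's adjusted p for Ccn2 was 8.74e-06. Without CTRL 3, SMKO 2 and SMKO 3, a choice made after seeing the data, the log2 fold change was 1.65 against CTRL (adjusted p = 0.000201, edgeR) and 2.16 against SMKO (adjusted p = 0.000871, edgeR).

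The call against ECKO was lost in 7 of the 12 fits that left out 1 library, namely CTRL 1, any DKO and any ECKO library, with adjusted p up to 0.283 in edgeR's test, and with a stricter low-count filter (adjusted p = 0.0720) or library depth as a covariate (0.0522). Its log2 fold change stayed between 1.45 and 1.74 in all alternatives. A two-sided exact permutation test on log2 CPM gave p = 0.1 in each of the 3 pairs with DKO, the smallest that 3 against 3 can give.

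**Figure D2:**
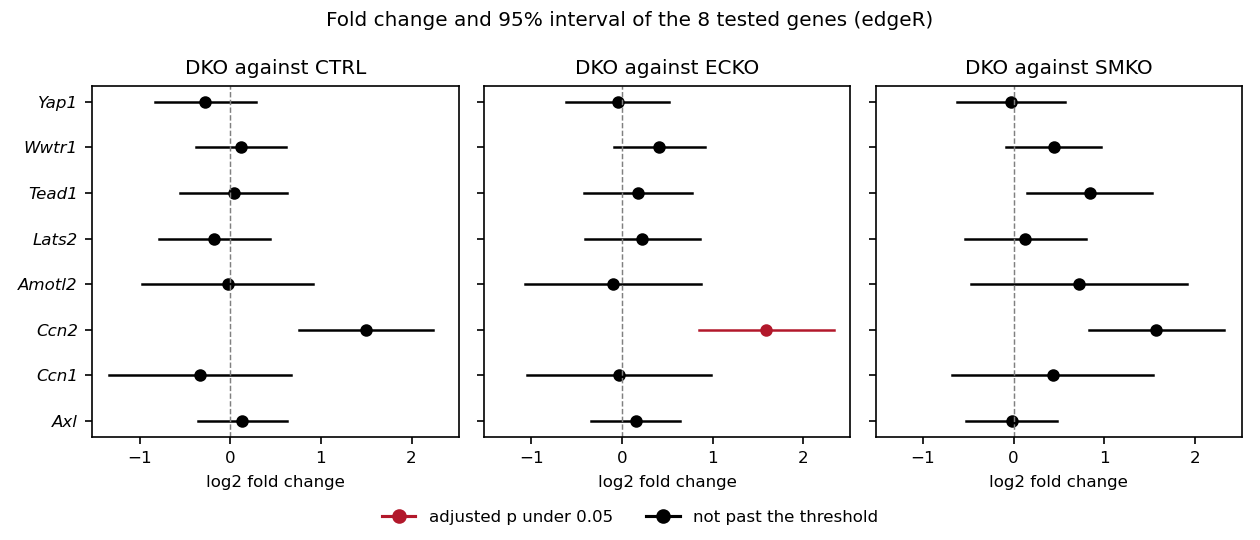
Log2 fold change (x axis) of the 8 tested genes in DKO against CTRL, ECKO and SMKO, with 95% intervals from edgeR; red marks an adjusted p under 0.05. Ccn2 lies at 1.50, 1.59 and 1.58, and the other genes at -0.34 to 0.84.

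Ccn2 was not called in either single deletion. Its log2 fold change was -0.08 in SMKO against CTRL (95% interval -0.82 to 0.66), -0.10 in ECKO against CTRL (-0.83 to 0.63) and 0.02 in SMKO against ECKO (-0.72 to 0.75). The SMKO values rested on SMKO 2: without it they were -0.81 (SE 0.29, adjusted p = 0.694, edgeR) against CTRL and -0.71 against ECKO. No gene passed in these 3 comparisons in edgeR (0% of 6296), with an unadjusted p under 0.05 in 345, 273 and 239 genes; DESeq2 called 2 genes in ECKO against CTRL, 2 in SMKO against ECKO and 0 in SMKO against CTRL, and limma-voom 0 in each. The change in DKO beyond the sum of the single changes was 1.67 for Ccn2 on the log2 scale (SE 0.51, 95% interval 0.63 to 2.71, adjusted p = 0.625 in edgeR's test). None of the 8 members was called in that interaction, beside 0.0318% of genes. Without SMKO 2 the adjusted p of the interaction was 0.000664 in edgeR's test.

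In the authors' deposited table, which does not state the test, the Ccn2 fold change was 2.83 for DKO against CTRL, 3.03 against ECKO and 3.05 against SMKO. The p-values in the authors' deposited table were 0.000652, 0.000273 and 0.000274. Ccn2 shares an exon region with the noncoding Gm15270 on the opposite strand, which had 0 counts in every library.

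Ccn1 was not called in any comparison. Like Ccn2 it encodes a matricellular protein and is switched on quickly by YAP and by serum. It had 173, 237 and 170 CPM in DKO, 59.5, 267 and 138 CPM in SMKO, 241, 178 and 191 CPM in ECKO, and 149, 385 and 193 CPM in CTRL. CTRL 2 was the highest of all libraries, SMKO 1 the lowest, and the DKO libraries lay within the range of every other group except ECKO, where they reached slightly below. The log2 fold change of Ccn1 was -0.34 in DKO against CTRL (95% interval -1.34 to 0.67), -0.03 against ECKO (-1.05 to 0.98) and 0.43 against SMKO (-0.68 to 1.54).

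The ratio of Ccn2 counts to Ccn1 counts needs no scaling between libraries. It was 21.1, 12.5 and 14.8 in DKO, 11.1, 6.75 and 4.10 in SMKO, 4.94, 5.75 and 4.25 in ECKO, and 7.67, 1.98 and 6.92 in CTRL. All 3 DKO libraries lay above the other 9, and the nearest was SMKO 1. Counting error alone gave DKO 2, the lowest DKO library, an exact binomial 95% interval of 10.3 to 15.2, and SMKO 1 one of 7.88 to 16.2, so these 2 libraries were not told apart. The mean log2 ratio was higher in DKO by 1.22 than in SMKO, by 1.67 than in ECKO and by 1.74 than in CTRL, each with p = 0.1 in an exact two-sided permutation test, the smallest it can give.

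**Figure D3:**
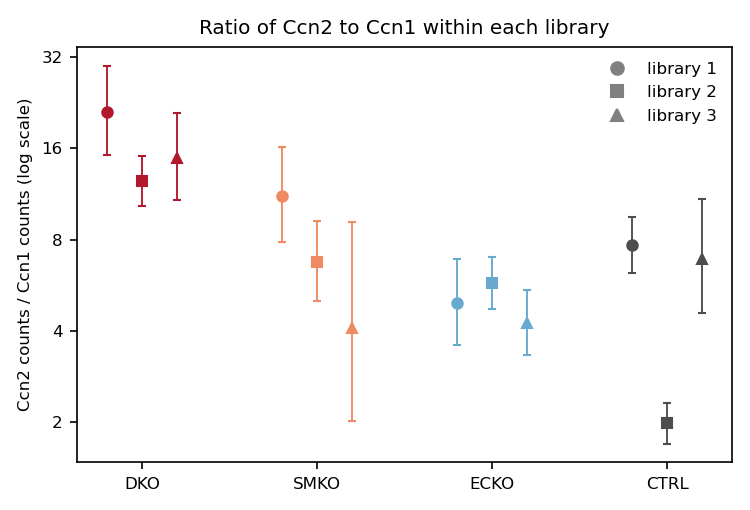
Counts of Ccn2 divided by counts of Ccn1 in each library (y axis, log scale), by genotype, with exact binomial 95% intervals that cover counting error only. DKO libraries lie from 12.5 to 21.1 and all others from 1.98 to 11.1.

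Yap1 and Wwtr1 showed no called change. Yap1 had 118, 135 and 95.4 CPM in DKO, 148, 113 and 55.2 CPM in SMKO, 97.3, 124 and 138 CPM in ECKO, and 160, 156 and 89.2 CPM in CTRL. The 4 groups overlapped, and the lowest values were in CTRL 3 and SMKO 3. In DKO against CTRL the log2 fold change of Yap1 was -0.28 (95% interval -0.83 to 0.28). Gm20416, which overlaps Yap1 on the opposite strand, had 0 counts.

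Wwtr1 had 327, 301 and 216 CPM in DKO, 194, 252 and 166 CPM in SMKO, 215, 207 and 214 CPM in ECKO, and 289, 257 and 223 CPM in CTRL. Its ECKO libraries lay close together and below every DKO and CTRL library. In DKO against ECKO the log2 fold change was 0.41 (95% interval -0.09 to 0.91), and in ECKO against CTRL it was -0.29 (-0.79 to 0.21). Neither passed (adjusted p = 0.587 and 0.998, edgeR), and non-overlap made up 11.8% of all genes in ECKO against CTRL. The interaction for Wwtr1 was 0.73 on the log2 scale (95% interval 0.01 to 1.46, adjusted p = 0.798, edgeR).

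Tead1, the DNA-binding partner, had its lowest values in SMKO. It had 86.3, 69.7 and 74.6 CPM in DKO, 42.5, 35.9 and 55.2 CPM in SMKO, 56.3, 61.3 and 80.4 CPM in ECKO, and 70.0, 64.9 and 104 CPM in CTRL. The 3 SMKO libraries were the 3 lowest of the 12, and rested on 25, 7 and 4 counts. The log2 fold change was 0.84 in DKO against SMKO (95% interval 0.14 to 1.53, adjusted p = 0.672, edgeR) and -0.80 in SMKO against CTRL (-1.48 to -0.12, adjusted p = 0.874, edgeR). Groups of 3 that did not overlap made up 9.55% of all genes in DKO against SMKO, where 2 of 8 members did so, and 10.5% in SMKO against CTRL, where Tead1 was the 1 of 8.

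Lats2 and Amotl2, which restrain YAP and are also its targets, varied within groups as much as between them. Lats2 ranged from 62.2 to 132 CPM in DKO, 41.4 to 128 CPM in SMKO, 80.2 to 133 CPM in ECKO and 89.2 to 141 CPM in CTRL. Amotl2 ranged from 27.2 to 37.3 CPM in DKO, 11.9 to 30.8 CPM in SMKO, 15.4 to 39.4 CPM in ECKO and 0 to 39.4 CPM in CTRL. The 0 was CTRL 3, whose depth allows up to 18.8 raw CPM, and Amotl2 had at most 27 counts in any library. In DKO against CTRL the log2 fold change was -0.18 for Lats2 (95% interval -0.79 to 0.44) and -0.03 for Amotl2 (-0.97 to 0.91). Lats2 shares an exon region with Gm49361, which had 0 counts.

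Axl, the receptor for GAS6, showed no called change. It had 327, 327 and 336 CPM in DKO, 364, 313 and 317 CPM in SMKO, 292, 314 and 282 CPM in ECKO, and 254, 355 and 290 CPM in CTRL. The means were 330 ± 5.27 CPM in DKO, 332 ± 28.2 CPM in SMKO, 296 ± 16.1 CPM in ECKO and 299.6 ± 51.7 CPM in CTRL (SD, n = 3 each). The DKO and ECKO libraries did not overlap, at a log2 fold change of 0.15 (95% interval -0.34 to 0.64), which was not called.

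Over the 7 tested members other than Ccn2, log2 fold changes ran from -0.34 to 0.13 in DKO against CTRL, from -0.10 to 0.41 against ECKO and from -0.03 to 0.84 against SMKO. All 7 intervals in DKO against CTRL and against ECKO ended below the Ccn2 estimate, the highest ends being 0.91 and 0.98. In DKO against SMKO 6 of 7 did, with Amotl2 reaching 1.92. The Ccn2 intervals began at 0.75, 0.85 and 0.83 against CTRL, ECKO and SMKO, so they overlapped the intervals that reached highest. A test of Ccn2 against the other members was made only for Ccn1, through the ratio.

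Ankrd1 encodes a nuclear ankyrin-repeat protein that is most abundant in heart muscle and has 2 matches to the TEAD letters in its promoter. It was too sparse for the test: it had 5, 6 and 1 counts in DKO, 3, 3 and 1 in SMKO, 1, 31 and 0 in ECKO, and 0, 4 and 1 in CTRL. ECKO 2 alone held 31 of its 56 counts, and the other libraries had 0 to 6. With no low-count filter the log2 fold change was 2.45 in ECKO against CTRL (adjusted p = 0.288, edgeR) and 1.73 in DKO against CTRL (adjusted p = 0.582, edgeR). Heart muscle genes were high in the same library: the summed level of 8 cardiomyocyte genes was 609.9 CPM in ECKO 2 and 10.2 to 110 CPM in the other 11 libraries. Of the 214 counts of cardiac actin, Actc1, ECKO libraries held 199. Of the 8 muscle genes, 5 had 0 counts in DKO, namely Myh6, Myh7, Actc1, Myl7 and Nppa. The sum of all 8 was still 61.7 to 77.2 CPM in DKO, beside 37.4 to 110 CPM in SMKO and 24.8 to 44.6 CPM in CTRL. Tnnt2, the 1 of the 8 that was tested, had a log2 fold change of 1.65 in DKO against CTRL and was not called. The part of the muscle genes in the Ankrd1 value was not tested.

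**Figure D4:**
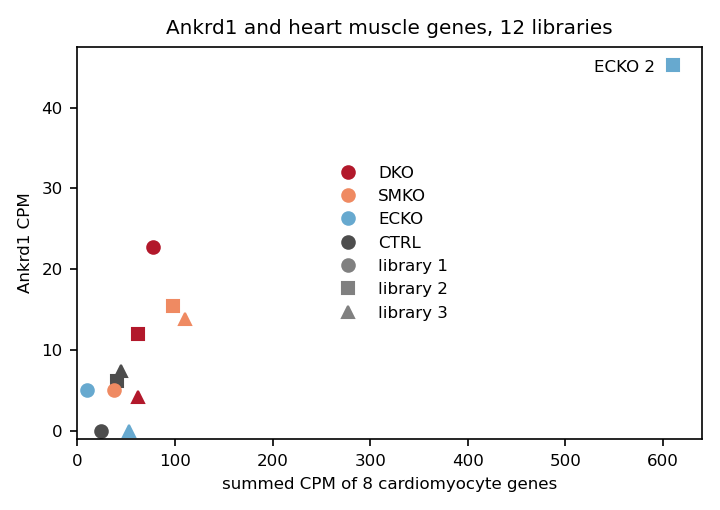
Ankrd1 level (y axis, CPM) against the summed level of 8 cardiomyocyte genes (x axis, CPM) in the 12 libraries, coloured by genotype, with a symbol per library number. ECKO 2 lies alone at 609.9 CPM of muscle genes and 45.2 CPM of Ankrd1; the other 11 lie at or below 110 and 22.7 CPM.

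In a wider signature of 22 YAP and TAZ targets, Ccn2 was the 1 gene called in the model of 12 libraries. Of its 14 tested genes, 6 were higher and 8 lower in DKO than in CTRL, 0 were called, and the median log2 fold change was -0.10, beside 0.02 over all tested genes. Against ECKO, 8 were higher and 6 lower, 1 was called, which was Ccn2, and the median was 0.10, beside 0.02. Against SMKO, 8 were higher and 6 lower, 0 were called, and the median was 0.12, beside 0.02. Igfbp3, which encodes a binding protein of insulin-like growth factors, had its lowest mean in DKO. It averaged 21.4 ± 11.7 CPM in DKO, 81.7 ± 72.4 CPM in SMKO, 103 ± 14 CPM in ECKO and 82.7 ± 39.5 CPM in CTRL (SD, n = 3 each). Its log2 fold change in DKO against CTRL was -2.24 (SE 0.84, adjusted p = 0.331, edgeR), and it was not called. In 4 of 24 alternatives it was, namely without SMKO 2 (adjusted p = 0.000913, edgeR), without CTRL 3, SMKO 2 and SMKO 3, with no low-count filter, and with the 2 groups alone. The same 4 called it against ECKO, and those without SMKO 2 also against SMKO (adjusted p = 0.000757 and 0.00576, edgeR). Leaving out 1 library gave values from -2.59 to -1.63 against CTRL. Asap1, a regulator of ARF GTPases, averaged 35.3 CPM in DKO, 63.4 CPM in SMKO, 25.6 CPM in ECKO and 40.4 CPM in CTRL, with no call.

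Among the 9 genes of the YAP, TAZ and TEAD complex, 4 were tested, with 0 called, 2 higher and 2 lower in DKO than in CTRL. Tead2, another TEAD, averaged 16.7 ± 10.8 CPM in DKO, 65.9 ± 50.5 CPM in SMKO, 51.6 ± 19.8 CPM in ECKO and 34.4 ± 2.46 CPM in CTRL (SD, n = 3 each). Its log2 fold change was -1.07 in DKO against CTRL (adjusted p = 0.406, edgeR), -1.61 against ECKO (adjusted p = 0.149, edgeR) and -1.61 against SMKO (adjusted p = 0.525, edgeR), with no overlap between libraries in any of them, beside 17.8%, 18.9% and 9.55% of all genes. Against ECKO it was called in 2 of 23 alternatives, with the 2 groups alone and without CTRL 3, SMKO 2 and SMKO 3 (adjusted p = 0.0360 and 0.0424, edgeR). DKO held 15 Tead2 counts in all, and its exons overlap those of Cd37 on the opposite strand.

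Of 26 Hippo kinases and upstream regulators, 22 were tested. In DKO against CTRL, 5 were higher and 17 lower, 0 were called, and the median log2 fold change was -0.17, beside 0.02 over all genes. The scaffold Sav1 averaged 90.0 ± 46.9 CPM in DKO, 69.6 ± 24.2 CPM in SMKO, 93.8 ± 36.5 CPM in ECKO and 141 ± 32.4 CPM in CTRL (SD, n = 3 each). The giant cadherin Fat4 had a log2 fold change of -0.99 in DKO against CTRL (adjusted p = 0.269, edgeR). For Frmd6, a membrane-linked activator of the kinases, it was -0.73 (adjusted p = 0.497, edgeR), and -1.40 without DKO 2.

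Of the 6 CCN genes, Ccn2, Ccn1 and Ccn5 were tested. Ccn5, which lacks the C-terminal domain of its relatives, averaged 129 ± 134 CPM in DKO, 69.7 ± 12.2 CPM in SMKO, 77.0 ± 5.58 CPM in ECKO and 49.6 ± 21.0 CPM in CTRL (SD, n = 3 each). Its spread in DKO exceeded its mean, and it was not called (log2 fold change 1.47 against CTRL, adjusted p = 0.415, edgeR). Without DKO 3 that value was 0.32, and with no low-count filter it was called (adjusted p = 0.00638, edgeR). Ccn3, Ccn4 and Ccn6, with 99, 56 and 3 counts over all libraries, did not pass the low-count filter. For Axl's family, 4 of 5 receptors and ligands were tested and 0 were called in any comparison. Mertk, Gas6 and Pros1 had log2 fold changes of 0.70, -0.03 and -0.43 in DKO against CTRL. That of Mertk was 1.83 without CTRL 1 and 0.25 without CTRL 2.

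Of 14 TGF-beta responsive genes, all tested, 10 were higher and 4 lower in DKO than in CTRL, with a median log2 fold change of 0.47, beside 0.02 over all genes, and 1 was called, beside 0.492% of all genes. It was Ltbp2, a matrix protein of the latent TGF-beta binding family, with 743 ± 172 CPM in DKO, 360 ± 223 CPM in SMKO, 468 ± 106 CPM in ECKO and 286 ± 6.43 CPM in CTRL (SD, n = 3 each). Its log2 fold change against CTRL was 1.38 (SE 0.31, adjusted p = 0.0312, edgeR). That call was lost without any 1 of the CTRL, ECKO or DKO libraries, with adjusted p between 0.0539 and 0.210 in edgeR's test. It was also lost with the stricter low-count filter (adjusted p = 0.0606, edgeR) and with library depth (0.0500006) or mitochondrial share (0.0565) as a covariate.

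**Figure D5:**
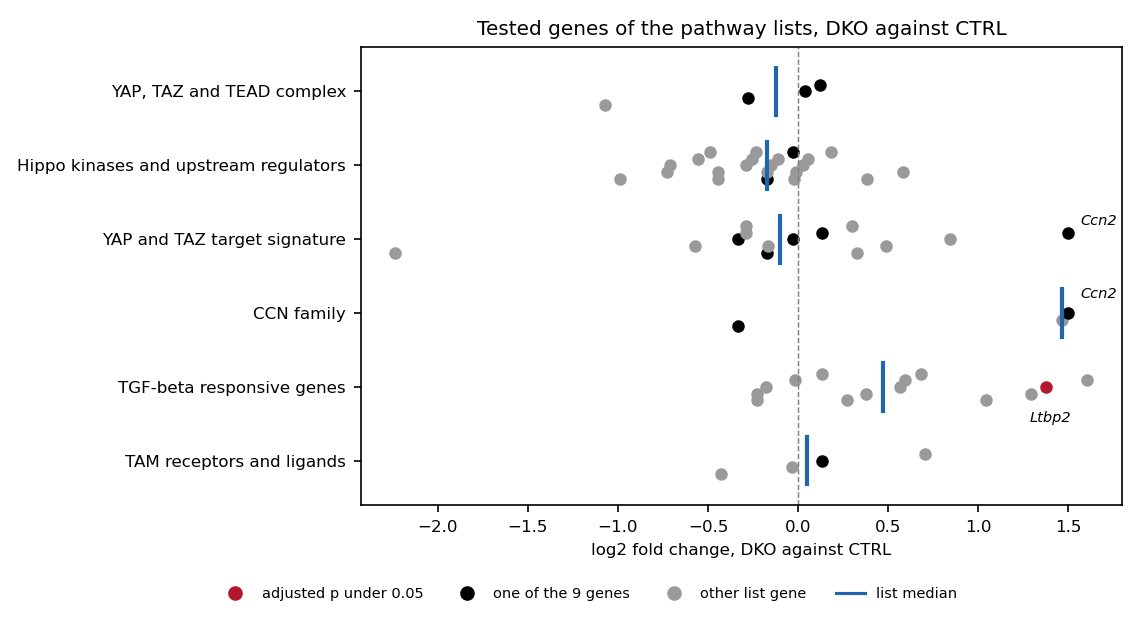
Log2 fold change in DKO against CTRL (x axis) of the tested genes of 6 pathway lists, 1 point per gene, with the list median as a blue line; red marks an adjusted p under 0.05 and black the genes followed here. Ccn2 at 1.50 is the highest of the YAP and TAZ target list, whose median is -0.10, and Igfbp3 of that list lies at -2.24. Neither was called in this comparison. The median of the TGF-beta list is 0.47.

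Markers of valve interstitial cells were counted in every library for 9 of 9 genes and of endothelial cells for 10 of 10. The summed level of the endothelial markers ran from 1053 to 1294 CPM in DKO, 1171 to 2084 CPM in SMKO, 1577 to 1885 CPM in ECKO and 1218 to 1404 CPM in CTRL. In DKO against CTRL, 6 of the 10 were lower, 0 were called, and the median log2 fold change was -0.52, beside 0.02 over all genes. An unadjusted p under 0.05 was found for 6 of the 10, of which 5 were lower, beside 11.6% of all genes. Against ECKO, 9 were lower, the median was -0.66, and 2 were called, beside 0.572% of all genes. These were Prox1 (log2 fold change -2.48, adjusted p = 0.0336, edgeR) and Kdr (-1.76, adjusted p = 0.0399, edgeR). Neither was called by DESeq2 (adjusted p = 0.0558 and 0.0969) or limma-voom (0.0644 and 0.0571), and of 12 fits without 1 library 7 called Prox1 and 5 called Kdr. The interstitial sum ran from 32418 to 46186 CPM in DKO, 21601 to 51033 CPM in SMKO, 28266 to 36395 CPM in ECKO and 31851 to 37125 CPM in CTRL. Of the 6 smooth muscle and myofibroblast genes, Myh11, Cnn1 and Myocd had 12, 8 and 3 counts over all libraries. The other 3, Acta2, Tagln and Smtn, were tested, with 0 called in any comparison. In DKO, 2 were higher and 1 lower than in CTRL, and all 3 were higher than in SMKO. The sum of the 6 ran from 328 to 384 CPM in DKO, 193 to 259 CPM in SMKO, 307 to 340 CPM in ECKO and 245 to 305 CPM in CTRL. The melanocyte sum, 384 to 903 CPM in DKO, 193 to 1006 CPM in SMKO and 201 to 677 CPM in CTRL, was 61.4 to 101 CPM in ECKO. The part of these cell types in the Ccn2 values was not tested.

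The genes whose log2 CPM followed Ccn2 most closely over the 12 libraries were Tmbim1 (Pearson r = 0.98), Timp1 (0.94), Tspan5 (0.93), Col16a1 (0.93) and Npy (0.92). The libraries share depth and scaling, and no p is given. Over the 9 libraries other than DKO these values were 0.97, 0.89, 0.81, 0.87 and 0.89. Of those 9, SMKO 2 had the highest Ccn2 level (1802 CPM), and r was not computed without it. Timp1, an inhibitor of matrix metalloproteinases, averaged 371 ± 49.7 CPM in DKO, 191 ± 226 CPM in SMKO, 102 ± 10.4 CPM in ECKO and 106 ± 30.6 CPM in CTRL (SD, n = 3 each). Tmbim1, a membrane protein, averaged 346 ± 19.8 CPM in DKO, 209 ± 85.8 CPM in SMKO, 196 ± 27.1 CPM in ECKO and 211 ± 42.3 CPM in CTRL. Their adjusted p over the 4 groups was 0.506 for Timp1 and 0.338 for Tmbim1 in edgeR's test, so neither passed.

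For Ccn1 the closest genes were Abhd5 (r = 0.81), Rspry1 (0.72), Ifngr2 (0.72), Herpud2 (0.71) and Rnf115 (0.71), each with counts from 1 or 3 up to at most 43 in a library. For Yap1 they were Atrnl1 (r = 0.92), Creb1 (0.92), Pes1 (0.91), Sec13 (0.91) and Bccip (0.91), with counts from 0 to 66. Between the members themselves, Ccn2 had r = 0.27 with Ccn1, 0.71 with Wwtr1 and 0.08 with Yap1, and Yap1 had 0.56 with Wwtr1, all over 12 libraries and with no p.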

How the data were processed

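The authors deposited 1 table of whole-number counts for 41709 genes in 12 libraries, per the file headers, beside TPM scaled within each library. Their fold change and p-value for DKO against each other genotype stand in the same table, per the file headers, with no named test or adjustment. The genome build was GRCm39, per the submitters' processing notes. Not given in the sources used here were the aligner, the counting program, the use of strand and the annotation. Amplified cDNA was tagmented with the Nextera XT kit and read on a MiSeq instrument, per the labels' protocols.

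These counts, after TMM scaling, were tested in edgeR 4.0.16 (R 4.3.3), a robust quasi-likelihood F test in 1 model of 12 libraries with 8 residual degrees of freedom. The filter filterByExpr, with a minimum count of 10, kept 6296 of 16588 genes with any count, and 8 of the 9 members. p-values were adjusted by Benjamini-Hochberg over those genes. An adjusted p with no other tool named comes from edgeR. Tests covered the 6 pairs, all 4 groups at once, and the interaction (DKO minus ECKO minus SMKO plus CTRL). Intervals are at 95%, and those on counts, and limits from 3 counts, cover counting error only, since amplified copies are not independent molecules. Library totals of 74827 to 615665 counts limit precision for genes of few counts. Libraries of a genotype differed by more than sampling noise (chi-square per degree of freedom 1.85 to 9.64), so none were merged, and p-values measure the spread between these libraries.

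Besides the 9 genes and Efemp2, the text names genes of the pathway lists called in any pair or over the 4 groups. Where a pathway list had no such gene, the 3 with the smallest p over the 4 groups are named, and for Ccn2, Ccn1 and Yap1 the 5 genes of highest Pearson r on log2 CPM (prior count 2). Igfbp3, Asap1, Ccn5, Prox1, Kdr, Dct and the muscle genes fall outside that rule and were chosen after their values were seen. The members and all lists were chosen with earlier results of these data known. Promoters and gene overlaps came from RefSeq tables and an annotation of an older build than the counts, so gene positions are not compared with them. 1 of the pathway lists is not reported here. Alternatives were DESeq2 1.42.0, limma-voom (limma 3.58.1), other scalings and filters, covariates, a replicate block and leaving out libraries.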

Additional observations from a re-analysis of the deposited data

How the results depend on the processing

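Of 5416 values under alternatives, 5057 were classed as unchanged, 187 moved, 71 lost a call, 101 gained one, and 0 called values changed sign. That total includes genes that were not called, and the main results changed more often. Counts of called genes, classed by their ratio to the reported count, changed in 15 of 24 alternatives for DKO against CTRL and 18 of 24 against ECKO. The Ccn2 call against ECKO was lost in 9 of 24. Unchanged fold changes and adjusted p-values kept their side of the threshold, and uncalled fold changes stayed within 1 SE of the reported value. Their sign was not part of that rule, so uncalled values near 0 could change it. For Lats2 in DKO against CTRL they ran from -0.35 to 0.07. The log2 fold change of Ccn2 stayed positive in every alternative for DKO against CTRL (1.29 to 1.65), ECKO (1.45 to 1.74) and SMKO (1.30 to 2.29), but the call did not hold in all. The cause of a changed call or count was not tested. With DESeq2, the log2 fold change of Ccn2 was called against CTRL (1.47) and SMKO (1.55), and counts of called genes were 3 for DKO against SMKO, 2 for ECKO against CTRL, 2 for SMKO against ECKO, 1 for the interaction and 37 over the 4 groups. With limma-voom and library weights, Ccn2 was called against CTRL (1.49) and SMKO (2.04), had -0.54 in SMKO against CTRL, -0.39 in SMKO against ECKO and 2.19 in the interaction, and counts were 65 for DKO against CTRL, 95 against ECKO, 54 against SMKO, 7 for the interaction and 86 over the 4 groups. With no low-count filter, Ccn2 was called against CTRL (1.50) and SMKO (1.61), and counts were 158, 173 and 32 for DKO against CTRL, ECKO and SMKO, 8 for SMKO against CTRL, 15 for ECKO against CTRL, 16 for SMKO against ECKO, 28 for the interaction and 218 over the 4 groups. With the stricter filter (minimum count 20), Ccn2 was no longer called against ECKO (1.54) or over the 4 groups (adjusted p = 0.0753, edgeR), and counts were 14 against CTRL, 10 against ECKO and 2 over the 4 groups. With only the 2 groups of a pair, Ccn2 was called against CTRL (1.46), and counts were 99 against CTRL, 172 against ECKO, 3 for ECKO against CTRL and 1 for SMKO against ECKO; that fit gives no interaction or test over the 4 groups. With log10 library total as a covariate, Ccn2 was not called against ECKO (1.58) or over the 4 groups (adjusted p = 0.0529, edgeR), and counts were 16, 10 and 9 for DKO against CTRL, against ECKO and over the 4 groups. With mitochondrial share as a covariate, counts were 18 against CTRL, 20 against ECKO and 1 against SMKO. Counts of Y-linked genes were 89 in SMKO 1, 30 in CTRL 3 and 28 in DKO 3, and 0 or 1 in every other library, all of ECKO included. With Y-linked counts as a covariate, the log2 fold change of Ccn2 was 1.47 against CTRL (adjusted p = 0.0610, edgeR), and its call against ECKO held. Counts of called genes with that covariate, added after seeing the data, were 73 against ECKO and 29 over the 4 groups. Without CTRL 3, SMKO 2 and SMKO 3, added likewise, Ccn2 was called against CTRL (1.65), SMKO (2.16) and in the interaction (2.09), and had -0.50 in SMKO against CTRL and -0.57 in SMKO against ECKO. Counts there were 172, 193 and 82 for DKO against CTRL, ECKO and SMKO, 44 for the interaction and 184 over the 4 groups. Leaving out each library in turn, counts of called genes ran from 4 to 139 for DKO against CTRL, 0 to 150 against ECKO, 0 to 128 against SMKO, 0 to 1 for SMKO against CTRL, 0 to 2 for ECKO against CTRL, 0 to 1 for SMKO against ECKO, 0 to 62 for the interaction and 3 to 150 over the 4 groups. The log2 fold change of Ccn2 ran from 1.29 to 1.65 against CTRL, 1.45 to 1.74 against ECKO, 1.30 to 2.29 against SMKO, -0.81 to 0.18 for SMKO against CTRL, -0.30 to 0.08 for ECKO against CTRL, -0.71 to 0.28 for SMKO against ECKO and 1.40 to 2.39 for the interaction. Its adjusted p over the 4 groups ran from 1.4e-06 to 0.333 in edgeR's test. Replicate numbers are shared between genotypes, but same-numbered libraries had correlations of deviations from -0.14 to 0.18, with 5 of 18 pairs over 0.1, so the numbers were not taken as pairing. With the replicate block, 50 genes were called in DKO against CTRL, and the log2 fold change of Ccn2 was 1.45 against CTRL (adjusted p = 0.0544), 1.60 against ECKO (adjusted p = 0.0317) and 1.64 against SMKO (adjusted p = 0.228, edgeR), with no call changed. Depth limits Ankrd1, Amotl2 and Tead1 (at most 31, 27 and 48 counts in a library).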

Other observations

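Among the markers of red cells, macrophages and melanocytes, those of red cells varied most between libraries. The summed level of 5 erythroid genes ran from 99.6 to 427 CPM in DKO, 497 to 2275 CPM in SMKO, 41.0 to 5561 CPM in ECKO and 202 to 3425 CPM in CTRL. All 4 tested erythroid genes were lower in DKO than in CTRL, with 0 called. The summed level of 6 macrophage genes ran from 649 to 1693 CPM in DKO, 580 to 3456 CPM in SMKO, 557 to 1096 CPM in ECKO and 628 to 944 CPM in CTRL, with 0 of 6 called in any comparison. Of 5 tested melanocyte genes, Dct was called higher in DKO than in ECKO, and 0 were called against CTRL or SMKO. That call was held in 5 of 12 fits that left out 1 library.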
